A study of Mus musculus with 15 samples.

Results

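Liver tumors of mice lacking Mat1a were set against the livers of wild type mice of the same age, on 10 of the 15 arrays of the series. The 5 tumors came from MAT1A knockout (MAT1A KO) mice and had been classed as hepatocellular carcinoma by histology, and the 5 controls were healthy wild type (WT) livers. Every animal was 15 months old and of the C57B6SJL background, and none had been treated. The other 5 arrays, of peritumoral liver of MAT1A KO mice with the same diagnosis, are quoted only to place a level. Total RNA of 2 to 4 mg of pulverized tissue had been labelled with biotin and hybridized to Affymetrix mouse arrays, and levels are given on the log2 scale of RMA, so that a difference of 1 is a doubling. The genes described are those for which all 5 tumors lay above, or all 5 below, every WT array: 628 of the 12393 genes measured, 276 higher and 352 lower. The tumors and the WT livers differ both in genotype and in being tumor or not, and these differences cannot be told apart in this comparison. The labels call the tumors biological replicates but do not say that each came from its own animal, so p-values measure the spread between these arrays.

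MAT1A encodes the methionine adenosyltransferase of the adult hepatocyte, which joins methionine and ATP to form S-adenosylmethionine (SAMe), the methyl donor of the cell. Mice without the gene develop fatty liver and steatohepatitis and then liver tumors. Hepatocellular carcinoma typically keeps part of the hepatocyte program, such as the secretion of plasma proteins, and switches on genes of the fetal liver.

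The targeted gene was lower in every tumor. WT arrays 1 to 5 read 12.30, 12.25, 12.67, 12.72 and 12.68 for Mat1a, and tumors 1 to 5 read 8.72, 10.47, 8.63, 8.33 and 10.50. The groups did not overlap, and tumors 2 and 5 lay close to 2 units above the other 3 tumors. The log2 ratio was -3.19 (SE 0.43, limma adjusted p = 0.0165), a 9.15-fold lower mean. Mat1a was measured by 1 probe set, whose position relative to the deleted part of the gene is not given in the sources used here, so the residual signal does not measure functional transcript. Peritumoral samples 1 to 5 read 8.84, 11.44, 9.02, 8.99 and 9.29.

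A few arrays stood apart from their group. WT replicate 4 held granulocyte transcripts: the median of 9 granulocyte markers was 4.07 above the WT mean there and at least 0.76 below it in the other 4 WT livers, and S100a8 reached 12.92 in it. The tumors' S100a8 lay between 6.43 and 9.82, and the part of these cells in the results below was not tested beyond leaving that array out. Pairs of WT arrays correlated at 0.960 to 0.992 over all genes and pairs of tumors at 0.921 to 0.990, with tumors 1 and 4 closest to each other and tumors 2 and 5 farthest from the rest. The median level of an array ran from 5.47 to 5.68. Precision is limited by there being 5 arrays a group. Hepatocyte markers were near the top of the scale in both groups, with albumin (Alb) at 14.50 to 14.70 in the tumors and 14.59 to 14.70 in WT liver, and none of the 11 hepatocyte markers separated the groups. Nor did any of the 7 bile duct, 11 stellate cell and fibroblast, 9 macrophage, 9 granulocyte, 9 T and NK cell or 6 B and plasma cell markers. Tumor 3 stood apart within these lists: its median was 1.72 above the WT mean for the bile duct markers and 0.78 above it for the stellate cell and fibroblast markers, with Epcam at 7.54 and Col1a2 at 10.34, and the medians of the other tumors were at most 0.12 and 0.06. In such bulk tissue, fewer cells of a type and less RNA per cell cannot be told apart.

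Non-overlap of the groups was found for 5.07% of all genes, 2.23% higher and 2.84% lower, and these shares are the background for each gene group below. The median log2 ratio was 0.72 for the 276 higher genes and -0.54 for the 352 lower genes, against -0.05 for all genes. A difference of 1 or more was reached by 72 of the higher and 54 of the lower genes. In a limma fit over all 12393 genes, 70 passed an adjusted p of 0.05, which is 0.565% of genes, 42 of them higher (0.339%) and 28 lower (0.226%). All 70 were among the 628. Single arrays moved that count: it was 319 without WT replicate 4 (2.57% of genes, 1.49% higher and 1.08% lower), 136 without tumor 2, 116 without tumor 3, 124 without tumor 5, and between 10 and 27 when any of the other 6 arrays was left out. With WT replicate 4, tumor 2 and tumor 5 all left out, 1431 genes passed (11.5%), 735 higher (5.93%) and 696 lower (5.62%), and 338 of the 628 were among them. Genes that passed whichever single array was left out numbered 10, namely Nupr1, Bex1, Afp, Cbr3, Psat1, Nqo1 and Cbr1 among the higher and Masp2, Nfia and Bcl7c among the lower. Words such as rose and fell are used below only for genes past the limma threshold with all 10 arrays.

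**Figure D1:**
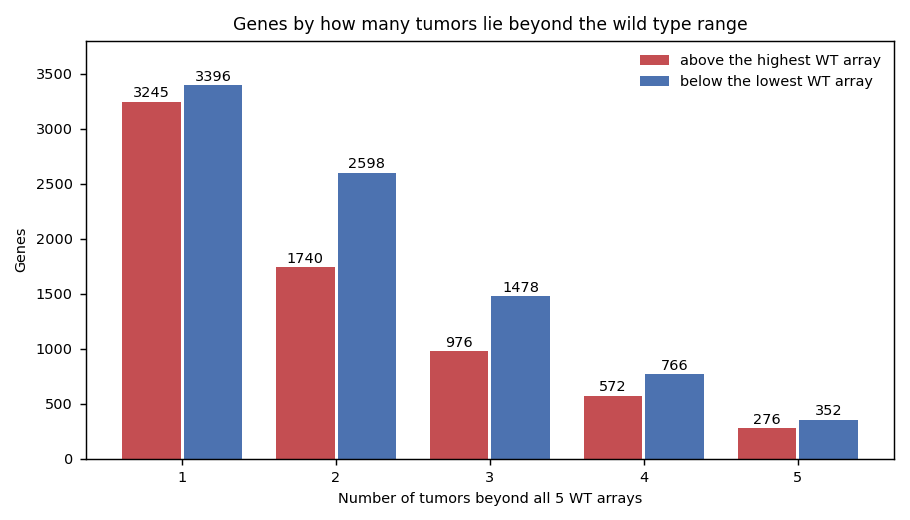
Number of genes (vertical axis) with 1, 2, 3, 4 or 5 tumors above the highest (red) or below the lowest (blue) of the 5 WT arrays. Counts shrink from 3245 and 3396 genes for 1 tumor to 276 and 352 genes for all 5.

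The widest separations among the higher genes were those of Nupr1, a stress-induced chromatin protein, Bex1, a signaling adaptor known from fetal liver and nervous tissue, and Afp, the alpha-fetoprotein of fetal liver and liver cancer. WT levels of Nupr1 were 4.68, 4.56, 4.54, 4.73 and 4.60, and tumors 1 to 5 read 9.12, 7.71, 7.77, 9.28 and 8.22. Every tumor was thus at least 2.98 above every WT liver. Nupr1 rose by a log2 ratio of 3.80 (SE 0.30, limma adjusted p = 0.000995), or 13.9-fold.

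Bex1 stood at 3.51, 3.22, 3.31, 4.26 and 3.34 in WT liver and at 9.15, 10.39, 6.86, 9.03 and 8.10 in the tumors. It had the largest rise of the 12393 genes, with a log2 ratio of 5.18 (SE 0.55, limma adjusted p = 0.00328), or 36.2-fold. Tumor 3 was lowest and tumor 2 highest, and peritumoral sample 2 also read 7.60 while the other 4 stayed between 3.27 and 3.93. Afp was at 3.75 to 4.09 in WT liver and at 6.44, 7.54, 6.40, 7.32 and 7.89 in the tumors, and rose by 3.18 (SE 0.28, limma adjusted p = 0.000995).

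All 4 genes that separated among the 27 measured oncofetal and liver tumor markers were higher and all 4 rose. Besides Bex1 and Afp these were Ly6d, a surface protein of epithelial and lymphoid progenitors (log2 ratio 3.91, SE 0.69), and Cpe, a carboxypeptidase of the secretory pathway (2.43, SE 0.42). For Ly6d the granulocyte-rich WT replicate 4 read 9.07 and the other WT livers 5.55 to 6.22, against 9.28 to 11.78 in the tumors. The list had a median log2 ratio of 1.20. Relative to the WT mean its median was 2.12 in tumor 3 and 0.52 to 1.13 in the other tumors, and WT replicate 4, at 0.73, lay above tumors 1 and 4. Among 28 progenitor and bile duct markers, 3 separated, all higher, and the list median was 1.46 in tumor 3 against -0.07 to 0.45 in the others. Prom1, the surface antigen CD133 of progenitor cells, rose by 3.05 (SE 0.49, limma adjusted p = 0.0346). Its tumors were tightly grouped at 7.83, 6.99, 7.28, 7.09 and 7.60, while WT livers read 3.71 to 3.90 except for replicate 4 at 6.39. Car2, a carbonic anhydrase of duct cells (log2 ratio 2.70), and Krt23, a keratin (1.56), separated without passing the test.

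Among 25 imprinted and X-linked development genes, 4 separated, all higher. Beside Bex1 stood its relatives Tceal8 (log2 ratio 2.37) and Bex3 (0.56) and Grb10 (0.45), an imprinted adaptor that dampens insulin signaling, and only Bex1 passed the test. Tceal8 was uneven within WT liver, at 5.53, 5.39 and 5.90 in replicates 1 to 3 and 8.06 and 7.87 in replicates 4 and 5, with tumors at 8.36 to 9.35. Peritumoral samples covered 7.76 to 9.58 for Tceal8.

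**Figure D2:**
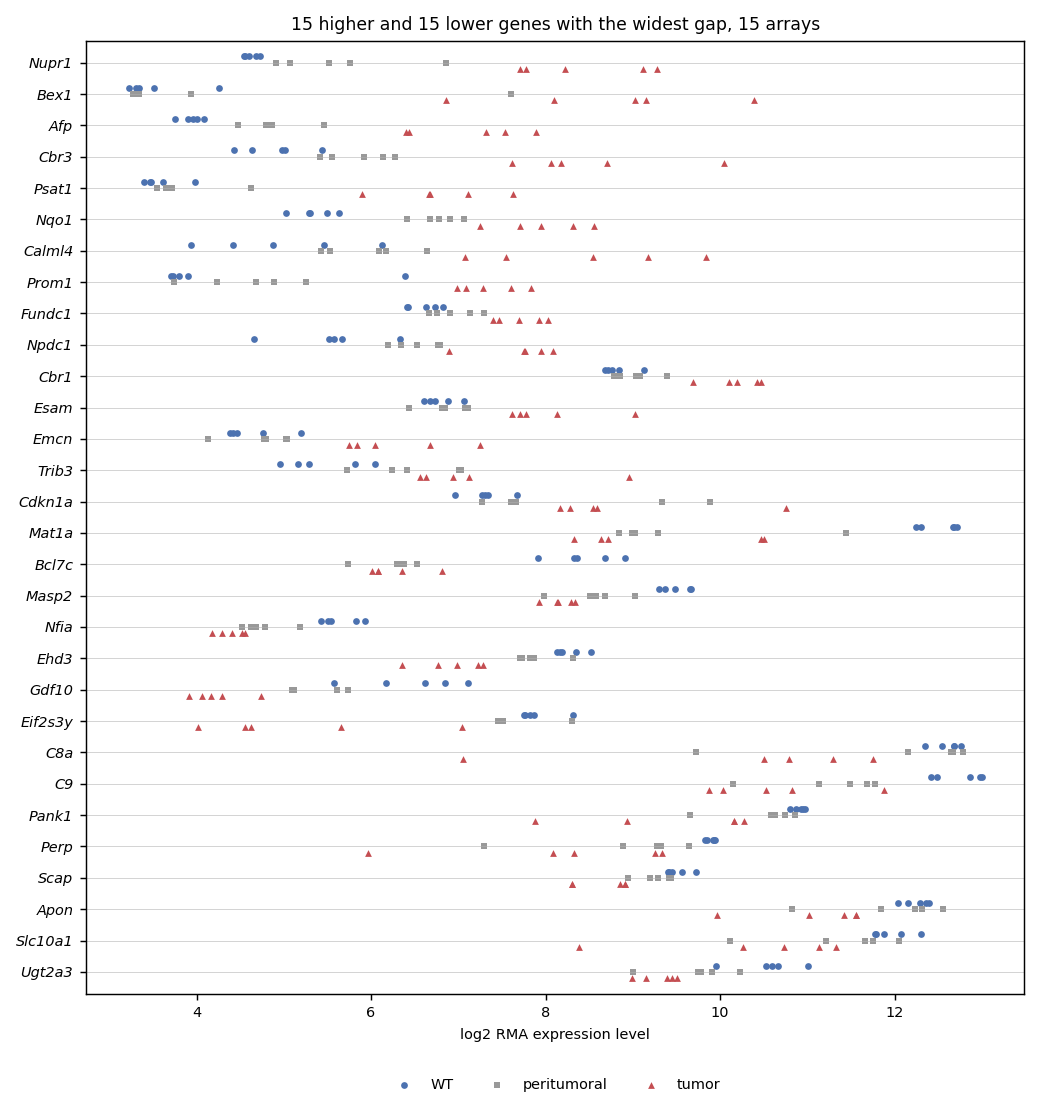
Log2 RMA levels (horizontal axis) in each of 5 WT (blue circles), 5 peritumoral (grey squares) and 5 tumor (red triangles) arrays, for the 15 higher and the 15 lower genes with the widest gap between the nearest tumor and the nearest WT array. In each row the red and blue marks do not overlap, and the gap runs from 2.98 for Nupr1 to 0.50 for Cdkn1a among higher genes and from 1.76 for Mat1a to 0.44 for Ugt2a3 among lower genes.

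Genes of amino acid supply and of the ATF4 stress pathway were among the most frequent higher genes. ATF4 is a transcription factor made when amino acids run short or the endoplasmic reticulum is strained, and it switches on amino acid synthesis, uptake and tRNA charging. Of 34 measured members of this list, 8 (23.5%) were higher in all 5 tumors and none lower, and the median log2 ratio was 0.55. Of these, 3 rose: Nupr1, Psat1 and Slc3a2. Psat1, an aminotransferase of serine synthesis, read 3.48, 3.61, 3.40, 3.98 and 3.47 in WT liver and 7.11, 6.66, 5.89, 6.68 and 7.63 in the tumors (log2 ratio 3.20, SE 0.28, limma adjusted p = 0.000995). The lowest tumor, number 3, was still 1.91 above the highest WT liver.

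Slc3a2, the heavy chain shared by several amino acid exchangers, rose by 0.81 (SE 0.12, limma adjusted p = 0.0209), with tumors at 9.30 to 9.76 and WT livers at 8.49 to 8.89. The other 5 separated without passing. Atf3, a stress-induced repressor, had a log2 ratio of 1.87 (SE 0.37), with tumors at 7.28, 7.06, 5.98, 7.17 and 8.32 and WT livers at 4.80 to 5.79. Trib3, a pseudokinase induced by ATF4, had a ratio of 1.79 (SE 0.43), with tumor 5 at 8.96 and the others at 6.56 to 7.12. Mthfd2 (0.84), a mitochondrial folate enzyme of fetal and tumor cells, Phgdh (0.67), the first enzyme of serine synthesis, and Sars (0.56), the seryl-tRNA synthetase, were higher by less, and the sign of Phgdh turned to -0.10 with its brightest probe set alone.

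The C/EBP-ATF response element that ATF4 binds is read as TGATGNAA on either strand. It was searched in RefSeq promoters (build GRCm38.p6, 250 bases before to 50 after the start), which were at hand for 9887 of the measured genes. A match was found in 3.13% of these genes, in 12 of the 28 members of the ATF4 list with a promoter, in 3 of the 8 higher members, and in 2.36% of the higher and 2.72% of the lower genes as a whole. The matches in higher members, which are descriptions and not binding sites, were in Nupr1, Atf3 and Trib3. These windows are shown to give the element in its setting, with the match in capitals, and in all 3 it lies on the strand opposite to transcription.
Nupr1 (chr7:126625533-126625620, minus strand): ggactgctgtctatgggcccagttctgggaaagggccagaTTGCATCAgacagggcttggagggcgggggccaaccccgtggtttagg
Atf3 (chr1:191183396-191183483, minus strand): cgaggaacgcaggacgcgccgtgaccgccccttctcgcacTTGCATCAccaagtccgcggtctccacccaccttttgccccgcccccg
Trib3 (chr2:152344039-152344086, minus strand): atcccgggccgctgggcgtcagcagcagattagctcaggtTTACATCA
The element began 110 bases before the start in Nupr1 and in Atf3, with the same 8 letters, and 14 bases past it in Trib3. Psat1 and Slc3a2 had no match in the window.

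NRF2 target genes, which encode enzymes that detoxify electrophiles and repair oxidized protein, were the other stress group. Of 32 measured members, 5 (15.6%) were higher and none lower, with a median log2 ratio of 0.23, and 4 rose. Nqo1, a quinone reductase, read 5.30, 5.29, 5.03, 5.63 and 5.50 in WT liver and 8.31, 7.25, 7.71, 7.95 and 8.56 in the tumors (log2 ratio 2.61, SE 0.23, limma adjusted p = 0.000995). Peritumoral samples lay in between, at 6.41 to 7.06, above every WT liver and below every tumor.

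Cbr3 and Cbr1, carbonyl reductases, rose by 3.62 (SE 0.41) and 1.35 (SE 0.16), and Srxn1, which restores oxidized peroxiredoxins, rose by 1.28 (SE 0.23). For Cbr3 the tumors read 8.18, 8.06, 10.05, 8.70 and 7.62 and the WT livers 4.43 to 5.44. Gsta4, a glutathione transferase for lipid peroxidation products, separated at 1.31 without passing. Without WT replicate 4, tumor 2 and tumor 5, 18 of the 32 passed as higher and none as lower, beside 5.93% of all genes. The list median relative to the WT mean was 1.05, 0.82 and 0.83 in tumors 1, 3 and 4 but -0.13 in both tumors left out. Among phase II conjugation genes, 3 of 46 were higher and 2 lower: Gstm5 rose by 1.29, Ugt2a3, a glucuronosyltransferase, fell by 1.25 and the bile acid conjugating enzyme Baat fell by 1.11. Further antioxidant genes, chosen after their values were seen, were Gpx4, the peroxidase of membrane lipids, which rose by 0.76 (SE 0.12), and Gpx7 and Prdx2, with log2 ratios of 1.54 and 0.98 that did not pass.

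Genes of p53 and of the immediate early response that separated were mostly higher. Of 44 p53 and apoptosis genes, 7 were higher and 2 lower, and of 29 AP-1 and immediate early genes 4 were higher and none lower. The p53 list median was 0.17 in WT replicate 4 and 0.09, 0.12, 0.46, 0.09 and 0.15 in tumors 1 to 5. For the AP-1 list it was 0.43 in WT replicate 4 and 0.15, 1.34, 0.45, 0.20 and 0.54 in the tumors. Ier3, a survival gene of both lists, rose by 3.07 (SE 0.57, limma adjusted p = 0.0486), although its lowest tumor (7.06) was only 0.05 above WT replicate 4 (7.01), and the other WT livers read 4.67 to 5.20. Btg2, an antiproliferative p53 target, was uneven among tumors at 8.13, 11.69, 8.08, 8.38 and 10.63, against 6.21 to 8.07 in WT liver. Cdkn1a, which encodes the cell cycle inhibitor p21, read 8.28, 10.76, 8.54, 8.16 and 8.59 in the tumors and 6.96 to 7.67 in WT liver, so that tumor 2 stood apart (log2 ratio 1.56, limma adjusted p = 0.124). Peritumoral sample 2 was also high, at 9.06 for Ier3, 11.89 for Btg2 and 9.88 for Cdkn1a. The other peritumoral samples read 4.70 to 6.31, 7.22 to 8.46 and 7.27 to 9.33 for these genes.

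Gadd45a (1.57), a DNA damage sensor, Ccng2 (1.05), a cyclin of arrested cells, Bcl2l1 (0.65), which encodes the survival protein Bcl-xL, and Mdm2 (0.32), the ligase that degrades p53, were the remaining higher members. Tumor 2 was the highest for Ccng2 and Bcl2l1, and tumor 5 for Gadd45a and Mdm2. The lower members were Perp, a p53 target of cell junctions (log2 ratio -1.71, tumors 5.97 to 9.33, WT 9.83 to 9.94), and Casp9, the initiator caspase of the mitochondrial pathway (-0.31).

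Proliferation genes were higher in most tumors but seldom in all 5. Of 61 cell cycle and replication genes, 4 separated, all higher: Rrm2, Plk1, Mcm7 and the cell cycle inhibitor Cdkn1a. None passed with all arrays. The list's median log2 ratio was 0.51. Rrm2, the inducible subunit of ribonucleotide reductase, read 6.82, 9.30, 6.04, 6.89 and 6.86 in the tumors, against 4.66 to 5.09 in 4 WT livers and 5.96 in WT replicate 4. Without WT replicate 4, tumor 2 and tumor 5, 37 of the 61 passed as higher and none as lower, beside 5.93% and 5.62% of all genes. The arrays left out include the tumor with the lowest and the WT liver with the highest list median. The list median was -0.05 in tumor 2 and between 0.49 and 0.90 in the other tumors, and it was 0.29 in WT replicate 4. Birc5 and Ube2c, of the mitotic spindle and its checkpoint, were among the clearest genes that 4 of 5 tumors shared. Birc5 read 7.18, 5.45, 6.51 and 6.98 in tumors 1, 3, 4 and 5 and 4.27 in tumor 2, where WT livers read 3.59 to 3.72 and WT replicate 4 read 4.58. Ube2c, likewise, was 8.19, 6.39, 7.50 and 7.32 in those tumors and 4.58 in tumor 2, with WT livers at 3.90 to 4.71 and WT replicate 4 at 6.13. Tumor 2 thus had the highest Rrm2 and Cdkn1a and the lowest Birc5 and Ube2c. Lig1, the DNA ligase of replication, was chosen after its values were seen and rose by 0.94 (SE 0.17).

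The protein synthesis machinery was higher by small amounts. Of 41 cytosolic ribosomal protein genes, 9 (22%) were higher in all tumors and none lower, with a list median of 0.41, and only Rps6 rose (0.58). Rps6 was dim, at 4.83 to 5.23 in WT liver and 5.44 to 5.69 in the tumors, where Rplp0 read 11.81 to 12.27 in WT liver. Peritumoral samples read 5.23 to 5.81 for Rps6, a range that took in that of the tumors. Rps19 (0.84), Rplp0 (0.74) and Rpl19 (0.72) had the largest ratios. Tumors 2 and 5 were the highest 2 for each of these, with Rplp0 at 13.06 in tumor 2 and at 12.51 to 12.56 in tumors 1, 3 and 4. Peritumoral sample 2 also read 12.98 for Rplp0. Of 40 proteasome genes, Psmd10 (0.85), Psme1 (0.73) and Psmb4 (0.24) were higher, each highest in tumor 5, and none passed.

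Sugar and lipid genes lay in both directions. Of 41 genes of glucose metabolism, 3 were higher and 2 lower. Slc2a1, the glucose transporter GLUT1 of fetal and tumor cells, rose by 1.41 (SE 0.26, limma adjusted p = 0.0468), and Aldoa, the aldolase of muscle and fetal liver, rose by 1.13 (SE 0.19, limma adjusted p = 0.0351). Slc2a1 read 7.38, 8.56, 8.04, 7.07 and 8.17 in the tumors and 6.22 to 6.65 in WT liver. Pgk1, of glycolysis, had a ratio of 0.38, while Tkfc (-1.07), a triose kinase of fructose metabolism, and Pygl (-0.99), the liver glycogen phosphorylase, were lower. Tumors 2 and 5 were lowest for Pygl, at 9.41 and 9.25 against 10.75 to 10.80 in the others.

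Among lipid genes, Fabp4, the fatty acid carrier of adipocytes and capillaries, rose by 1.58 (SE 0.26), and Elovl2, which elongates polyunsaturated fatty acids, fell by 1.32 (SE 0.23). Elovl7, another elongase, separated at a ratio of 2.04 with tumors spread from 4.72 to 7.78. Plin3, a lipid droplet coat protein, was even across tumors (SD 0.16, lowest tumor 8.55) with a ratio of 0.73. None of the 41 genes of fatty acid oxidation and ketone bodies, the 64 of the respiratory chain, the 19 of the circadian clock or the 9 clade B serpins separated the groups, and none of them passed the limma test with all arrays. With WT replicate 4, tumor 2 and tumor 5 left out, 4 of the fatty acid oxidation genes and 2 each of the respiratory chain, clock and serpin genes passed, beside 11.5% of all genes.

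**Figure D3:**
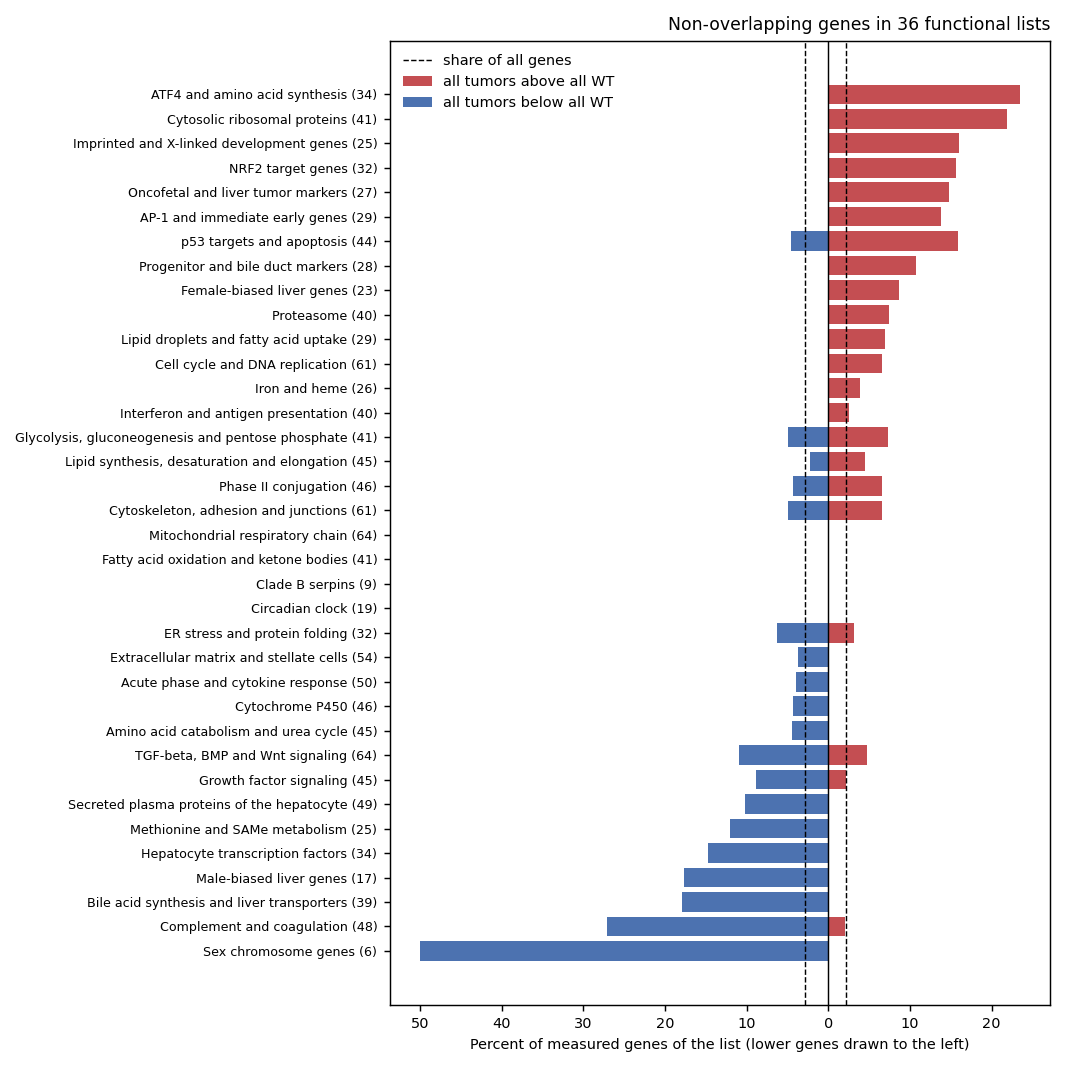
Percent of the measured genes of each of 36 functional lists (number measured in brackets) that were above (red, to the right) or below (blue, to the left) all WT arrays in all 5 tumors. Dashed lines mark the shares of all genes, 2.23% and 2.84%. The longest bars with over 10 measured genes are those of the ATF4 list (23.5%) to the right and of complement and coagulation to the left, with 13 of 48 genes lower.

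On the lower side, complement and coagulation factors, which hepatocytes secrete into plasma, formed the largest group. Of 48 measured genes, 13 were lower in all 5 tumors and 1 was higher, with a list median of -0.35, and 3 fell. Masp2, the protease that starts the lectin pathway, was the most even of them: WT livers read 9.67, 9.37, 9.48, 9.30 and 9.66 and tumors 8.13, 8.14, 8.29, 7.93 and 8.34 (log2 ratio -1.33, SE 0.11, limma adjusted p = 0.000995). No tumor came within 0.97 of a WT liver.

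The lectins that partner with it, Mbl1 and Mbl2, had ratios of -0.79 and -1.29 that did not pass. Mbl1 was at 8.73 in tumor 2 and at 10.80 to 11.14 in the other tumors, and its highest tumor was 0.01 below the lowest WT liver. In the RefSeq gene table (GRCm38.p6) Mbl1 lies 2 protein-coding genes from the deleted Mat1a, with Sftpa1 between them. Sftpa1, the neighbor, had a log2 ratio of -0.08, and of the measured genes among the 10 on either side of Mat1a only Mbl1 separated. On the side of Mbl1 only Sftpa1, Mbl1 and Sftpd (0.14) were measured. Whether the targeted locus bears on Mbl1 was not tested.

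The pore-forming terminal complement genes were lower together, namely C6, C8a, C8b, C9 and Hc, which encodes C5. C9 fell by 2.12 (SE 0.34, limma adjusted p = 0.0346), with tumors at 9.87, 10.03, 11.88, 10.53 and 10.83 and the lowest WT liver at 12.42. C8a had the larger mean difference of -2.33 but did not pass: tumor 2 read 7.05 and the others 10.50, 11.75, 11.30 and 10.79, while WT livers lay between 12.35 and 12.76. The lowest reading came from different tumors, with tumor 1 lowest for C8b (8.54) and C9, tumor 2 for C8a, and tumor 5 for C6 (6.90) and Hc (10.60). Peritumoral sample 2 was the lowest of its group for all 5 of these genes. For C6 all 5 peritumoral samples, at 7.34 to 9.12, lay below the lowest WT liver at 10.15. The same held for C9, with peritumoral samples at 10.15 to 11.78. The number below every WT liver was 2 for C8a, 1 for C8b and 2 for Hc. C6, C8a and C9 are also on a list of male-biased liver genes, where they were the only 3 of 17 that separated, with a list median of -1.68, and of these C9 fell. The male-biased list was also low in WT replicate 4, at a median of -1.31 that lay below those of tumors 1, 3 and 4 (-1.07, -0.63 and -1.03).

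Of the clotting and contact proteases, F7 (factor VII) fell by 1.03 (SE 0.16), and Klkb1 (plasma kallikrein, -1.16) and Plg (plasminogen, -0.46) were lower without passing, as were the inhibitor Serping1 (-0.61) and vitronectin, Vtn (-0.42). Plat, the tissue plasminogen activator of endothelial cells, was the single higher member and had the largest tumor SD (2.15) of the higher genes with a ratio of at least 1. Its tumors read 9.25, 4.62, 7.16, 8.63 and 4.72, against 3.38 to 4.23 in WT liver (log2 ratio 3.04, SE 0.86, limma adjusted p = 0.126). Tumors 1, 3 and 4 were high and tumors 2 and 5 close to WT liver.

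In the lists of plasma proteins, amino acid catabolism and cytochrome P450, the genes that separated were all lower, and none passed the test with all arrays. Among 49 plasma proteins, 5 were lower and none higher or past the test, including Apoa5 (-1.39), an apolipoprotein that governs plasma triglyceride, Crp (-1.05), the pentraxin C-reactive protein, and Itih1 (-0.92), which stabilizes matrix hyaluronan. Of 45 genes of amino acid catabolism, Amdhd1 and Uroc1, successive enzymes of histidine breakdown, were the 2 that separated, with ratios of -1.82 and -1.05. This was a share of 4.44% beside 2.84% of all genes. With WT replicate 4, tumor 2 and tumor 5 left out, 18 of the 45 passed as lower, beside 13 of the 48 complement and coagulation genes and 5.62% of all genes. The arrays left out include the WT liver with the lowest median for amino acid catabolism, -0.40. That median was -0.28, -0.30, -0.25, -0.55 and -0.23 in tumors 1 to 5, so WT replicate 4 lay below all tumors but tumor 4. Both Amdhd1 and Uroc1 were lowest in tumors 1 and 4, at 7.22 and 8.34 for Amdhd1. Of 46 cytochrome P450 genes, Cyp3a25 (-1.37) and Cyp2c70 (-0.91), an enzyme of mouse bile acid hydroxylation, were lower, a share of 4.35% beside 2.84% of all genes.

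Bile acid and transporter genes were lower in 7 of 39 cases (17.9%) and higher in none, with a median of -0.59. Tumors 2 and 5 stood apart, with list medians of -0.88 and -1.50, where tumors 1, 3 and 4 had 0.11, -0.26 and -0.07. Baat, which conjugates bile acids to amino acids, fell by 1.11 (SE 0.20, limma adjusted p = 0.0468). Slc10a1, the uptake transporter NTCP, read 10.73, 10.26, 11.33, 11.14 and 8.38 in the tumors and 11.78 to 12.30 in WT liver (ratio -1.60), lowest in tumor 5. Nr1h4, the bile acid receptor FXR, had tumors at 7.38 to 8.67 below WT livers at 8.90 to 9.30 (ratio -1.12, limma adjusted p = 0.0525).

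Nr1h4 was also 1 of 5 hepatocyte transcription factors, of 34 measured, that were lower, with none higher. Nfia, a nuclear factor I family member, was the only one that fell: WT livers read 5.54, 5.43, 5.51, 5.83 and 5.93 and tumors 4.52, 4.18, 4.55, 4.40 and 4.29 (log2 ratio -1.26, SE 0.13, limma adjusted p = 0.00208). Its 5 tumors had an SD of 0.16. Rxra, the partner of FXR and other nuclear receptors, was lower by less in tumors 1 to 4 (7.96 to 8.26) than in tumor 5 (6.76), where WT livers read 8.49 to 8.65. Rxrg (-0.47) and Gata4 (-0.40) completed the set.

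Methionine and SAMe metabolism had 3 lower genes of 25 and none higher. Mat1a fell, as given above, and Adi1, which closes the methionine salvage pathway, fell by 1.93 (SE 0.35, limma adjusted p = 0.0468). Adi1 was among the most even genes across tumors, at 7.70, 7.89, 7.49, 7.55 and 7.49, and WT livers read 9.84 to 10.04 except for WT replicate 5 at 8.02. Peritumoral samples were also at 7.58 to 7.99. Mthfd1, the cytosolic folate enzyme, had a ratio of -0.78 and Aldh1l1, the cytosolic formyltetrahydrofolate dehydrogenase chosen after its values were seen, one of -0.76, opposite in sign to the mitochondrial Mthfd2.

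On the fixed list of endothelial markers, the genes that separated were lower. Sinusoidal endothelium, the fenestrated lining of liver capillaries, is marked by scavenger receptors and by the angiocrine signals Wnt2 and Bmp2, while endomucin, caveolin and Esm1 mark other or sprouting vessels. Of 10 endothelial markers, Stab2 (a hyaluronan receptor, ratio -1.15), Clec4g (a sinusoidal lectin, -1.01) and Kdr (the VEGF receptor VEGFR2, -0.63) were lower and none was higher. Lyve1, another sinusoidal marker on the list, overlapped between the groups with a ratio of 0.65, where WT replicate 4 read 7.36 and the other WT livers 4.10 to 4.46. The tumors read 5.71 to 7.24, 4.40 to 6.87 and 6.32 to 7.18 for Stab2, Clec4g and Kdr, and none of the 3 passed the test. Pecam1 and Cdh5, found on all endothelium, overlapped between the groups, at 5.94 to 6.84 against 5.30 to 6.30 and at 4.15 to 4.66 against 4.33 to 4.82.

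The genes that follow are not on that list and were named for their gap, through other lists or after their values were seen. Wnt2 (-0.63) and Bmp2 (-0.94) were lower in all tumors, with the nearest tumor 0.12 below the lowest WT liver (4.32) for Wnt2. Emcn, endomucin, rose by 1.67 (SE 0.29, limma adjusted p = 0.0461), with tumors at 5.75, 5.84, 7.25, 6.05 and 6.68 and WT livers at 4.38 to 5.20. Cav1, the caveolar coat protein, was higher by 1.36, with tumor 3 at 8.63 and the others at 6.52 to 7.02, and Esam, a junction protein, was higher by 1.26. The further genes Stab1 (-0.57), Ptprb (-0.68), Klf2 (-0.76), Esm1 (1.94), Ackr3 (1.00), Angpt2 (0.76), Cavin3 (0.75) and Apln (0.70) were chosen after their values were seen, and none passed. Apart from Emcn, the separations in this paragraph and the preceding one are descriptions of non-overlapping groups.

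**Figure D4:**
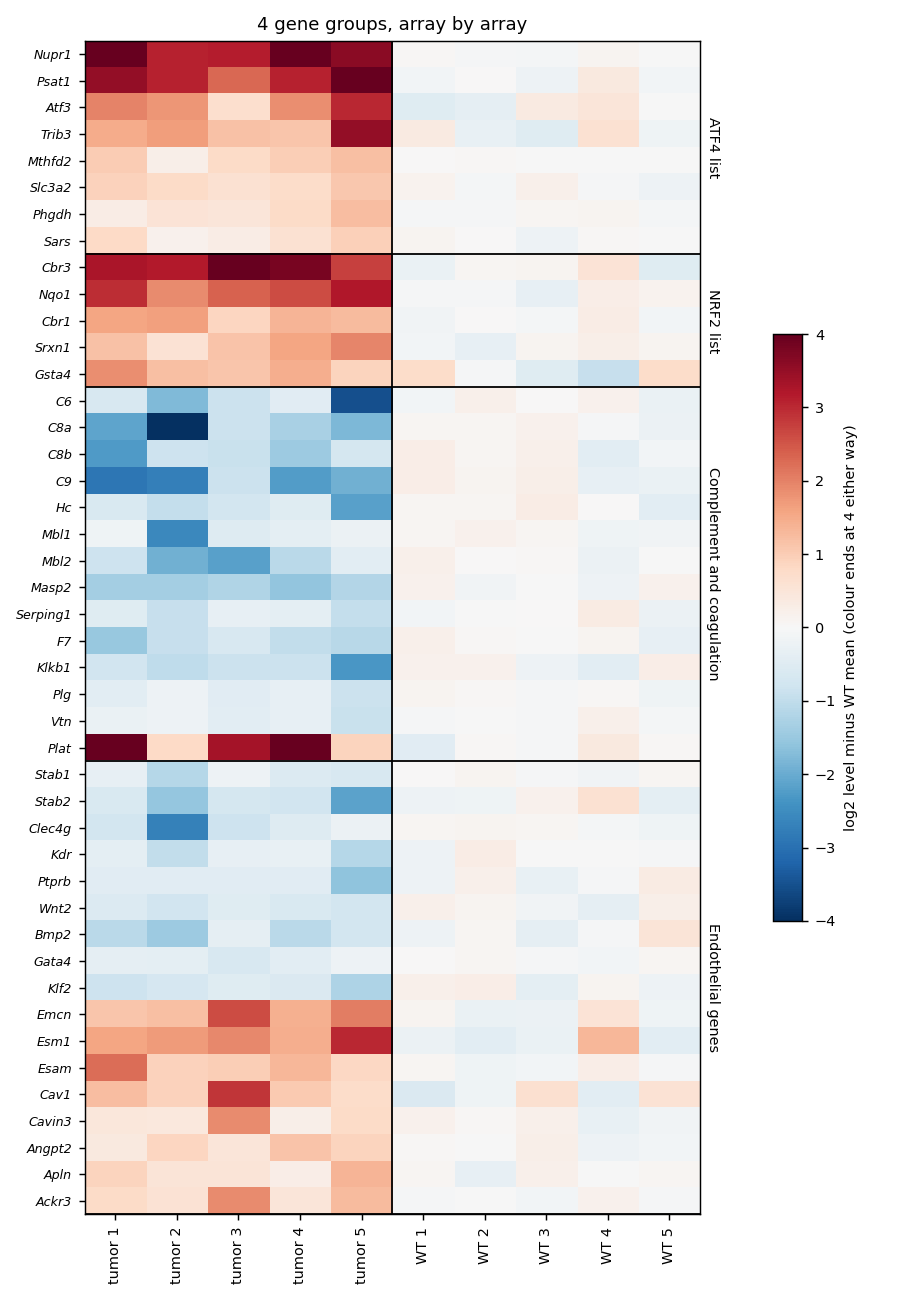
Log2 level minus the WT mean (colour) in tumors 1 to 5 and WT replicates 1 to 5 for genes of 4 groups described in the text. Only genes that separated are drawn, including 8 of 34 ATF4 list, 5 of 32 NRF2 list and 14 of 48 complement and coagulation genes. Their colour in the tumors is fixed by that choice. It is red for the ATF4 and NRF2 genes and Plat, and blue for the other complement and coagulation genes. The endothelial genes, most of them not on the fixed marker list and several chosen after their values were seen, show 9 blue and 8 red rows.

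Among 64 genes of TGF-beta, BMP and Wnt signaling, 7 were lower and 3 higher. Gdf10, a BMP family ligand (BMP3b), fell by 2.23 (SE 0.28, limma adjusted p = 0.00995), from WT levels of 6.85, 6.62, 6.17, 7.11 and 5.57 to tumor levels of 4.06, 3.91, 4.74, 4.29 and 4.17. It was the only one of the 10 to pass. Smad2 (0.62), Bmpr1a (0.40) and Inhbb (0.69), the activin beta B subunit, were higher, and with its brightest probe set alone Inhbb had a ratio of -0.13. Of 45 growth factor signaling genes, 4 were lower and 1 higher. Igf1, the hepatic growth factor of the growth hormone axis, had a ratio of -0.87 and was lowest in tumors 1 and 4 (9.69 and 9.93 against 10.79 to 11.11 in the others and 11.28 to 11.47 in WT liver). Fgfr3 was at -0.70.

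Matrix and stellate cell genes gave no shared rise. Of 54, none was higher in all 5 tumors and 2 were lower, a share of 3.70% beside 2.84% of all genes. The list median was 1.06 in tumor 3 and between -0.20 and 0.14 in the other tumors. These were Fn1 (fibronectin, -1.16) and Col18a1 (-0.85), both lowest in tumor 5. Among 61 genes of cytoskeleton and adhesion, Lgals1, the lectin galectin-1, had the largest difference (2.61), with tumors at 10.37, 8.36, 12.04, 9.88 and 9.94 and WT livers at 6.87 to 8.35. Tumor 2 cleared WT replicate 4 by less than 0.01. Ehd3, an endocytic protein, and Gjb2, the connexin 26 of hepatocyte gap junctions, fell by 1.35 and 0.52, and Ceacam1 was at -0.73. Of the acute phase and cytokine genes, 2 of 50 were lower, Cxcl12 (-1.48), a chemokine of stromal and sinusoidal cells, being the larger, and of 40 interferon and antigen presentation genes only Usp18 (1.95) separated. Usp18 and Ubd (ubiquitin D, 3.65), a cytokine-induced ubiquitin relative, were high in peritumoral samples as well, at 7.16 to 8.38 and 5.30 to 9.22.

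Of 6 measured sex chromosome genes, 3 separated, all Y-linked and lower in the tumors, and the list median was -0.30. Eif2s3y, a Y-linked translation factor, read 7.76, 7.87, 7.75, 7.82 and 8.32 in WT liver and 4.56, 5.66, 7.04, 4.62 and 4.02 in tumors 1 to 5, and it fell by 2.73 (SE 0.49, limma adjusted p = 0.0468). Tumor 3 was nearest to WT liver. Uty (-0.56) and Kdm5d (-0.45) were also lower in all tumors but dim, at 3.79 to 4.17 and 3.75 to 4.22 in WT liver, and did not pass. Peritumoral samples read 7.46 to 8.30 for Eif2s3y and 3.77 to 4.26 for Uty, above every tumor. For Kdm5d they read 3.49 to 3.99 and overlapped the tumors at 3.26 to 3.69.

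Several of the widest separations belong to no list. Bcl7c, a subunit of SWI/SNF chromatin complexes, fell by 2.17 (SE 0.21, limma adjusted p = 0.00175), with tumors at 6.08, 6.08, 6.35, 6.01 and 6.81 and WT livers at 7.91 to 8.91, and peritumoral samples read 5.73 to 6.53, below every WT liver as well. Pank1, a pantothenate kinase of coenzyme A synthesis (-1.42), and Apon, an apolipoprotein (-1.14), separated without passing, and Scap, the escort protein of the sterol-sensing SREBP factors, fell by 0.86 (SE 0.15). On the higher side Calml4, a calmodulin-like protein, rose by 3.48, Npdc1 by 2.14 and Fundc1, a receptor for mitophagy, by 1.10. Fundc1 was at 7.40 to 8.03 in the tumors and 6.41 to 6.82 in WT liver. Slc48a1, a heme transporter, rose by 1.01 and was the only 1 of 26 iron and heme genes that separated. In the endoplasmic reticulum list, Edem1 fell by 0.55, Calr, the chaperone calreticulin, was at -0.65 and Ero1a, a disulfide oxidase, at 0.94, so that 3 of 32 separated in both directions. Nnt, the mitochondrial transhydrogenase whose alleles differ between mouse strains, was chosen after its values were seen, with WT livers at 8.90 to 9.20, tumors at 7.88 to 8.83 and a ratio of -0.78 that did not pass.

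How far the 5 tumors agreed differed between genes. The median SD over the 5 tumors was 0.35 for the higher genes and 0.22 for the lower genes, against 0.17 and 0.15 over the WT livers, and for all genes 0.28 against 0.18. The tumor SD exceeded the WT SD for 225 of the 276 higher, 240 of the 352 lower and 9017 of all 12393 genes. Among genes with a ratio of at least 1 in size, the most even were Masp2, Nfia, Adi1, Acot9, Tax1bp3, Ugt2a3, Arl2bp and Fundc1, with SDs of 0.16 to 0.27. Acot9, a mitochondrial acyl-CoA thioesterase, read 7.85, 7.58, 8.09, 7.95 and 7.96 in the tumors, but WT replicate 4 was at 7.51 and the other WT livers at 5.37 to 5.97, and it did not pass.

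The least even were Plat, C8a, Btg2, Ubd, Hilpda, Tmprss2, Perp and Mug1, with SDs of 1.33 to 2.15. Most of these turned on 1 or 2 tumors. Hilpda, a hypoxia-induced lipid droplet protein, read 9.42 in tumor 5 and 5.80 to 6.64 in the others, Tmprss2, a membrane protease, 10.15 in tumor 2 and 6.61 to 7.14 in the others, and Mug1, the protease inhibitor murinoglobulin, 9.36 in tumor 5 and 11.49 to 12.81 in the others. None of the 8 passed the test.

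**Figure D5:**
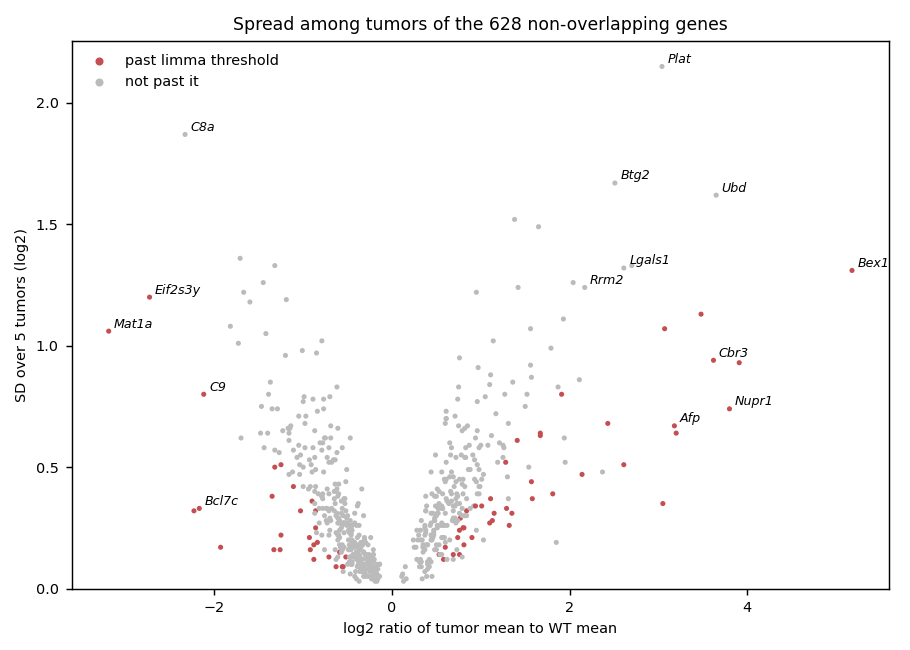
SD over the 5 tumors (vertical axis, log2) against the log2 ratio of tumor to WT mean (horizontal axis) for the 628 non-overlapping genes, with the 70 past the limma threshold in red. Nupr1 combines a ratio of 3.80 with an SD of 0.74, while Plat at 3.04 has an SD of 2.15 and is not past the threshold.

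The size of the shift also differed between tumors. For the higher genes the median ratio to the WT mean was 0.57, 0.76, 0.48, 0.53 and 0.89 in tumors 1 to 5, and for the lower genes it was -0.42, -0.52, -0.43, -0.44 and -0.65. Tumor 5 was thus farthest from WT liver in both directions. Tumor 3 was the nearest to WT liver for 191 of the 628 genes, tumor 4 for 132, tumor 2 for 114, tumor 1 for 103 and tumor 5 for 88. Over all 12393 genes the order was another. The tumor least shifted in the direction of the mean difference was number 2 for 3116 and number 5 for 3018. It was number 3 for 2355, number 1 for 2074 and number 4 for 1830. The peritumoral samples, at the higher and the lower genes, had medians of 0.11 to 0.39 and of -0.31 to -0.19. Of the 276 higher genes, 26 had all 5 peritumoral samples above the WT range and 28 had none, and of the 352 lower genes, 51 had all 5 below it and 18 none. Of all 12393 genes, 349 had all 5 peritumoral samples beyond the WT range on the side of the tumor mean, and 3629 had none. These samples share the WT arrays with the tumor comparison, so the counts are set side by side and not tested.

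Exactly 4 of 5 tumors were beyond the WT range for 1338 genes (10.8%), 572 higher and 766 lower. The tumor left within or across the WT range was number 2 for 432 of them, number 3 for 322, number 5 for 299, number 1 for 149 and number 4 for 136. Tumor 2, besides Birc5 and Ube2c, was the exception for Cd163, a scavenger receptor of macrophages, at 5.51 within the WT range of 5.37 to 7.79 while the others read 4.04 to 5.03. Tumor 3 was the exception for Hao2, a peroxisomal hydroxyacid oxidase, at 4.80 against 8.35 to 9.15 in the other tumors and 4.60 to 5.25 in WT liver. It was likewise the exception for Cyp2j5, an epoxygenase (10.19 against 6.67 to 8.92), and for Cadps2 (6.93 against 3.71 to 4.62).

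For tumor 1 the exceptions were Anxa13 (4.41), Fabp6, the bile acid carrier of the ileum (3.20), and Acnat2, a bile acid and fatty acid conjugating enzyme (8.96). Fabp6 reached 10.69 in tumor 2 and 7.13 in tumor 4 but only 4.72 and 3.46 in tumors 3 and 5, where WT livers read 3.19 to 3.44. Tumor 5 was the exception for Vil1, the microvillus protein villin, at 3.58 against 4.77 to 7.92 in the other tumors, for Sprr1a, a cornified envelope protein (4.57 against at least 5.03), and for Dct (5.52). Tumor 4 was the exception for Gyg, at 7.14 beside 7.24 to 7.34 in the other tumors and 7.21 in WT replicate 4, for Lama3 (4.65, lowest WT liver 4.57) and for Slc17a2 (8.57, lowest WT liver 8.26).

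Many genes left the WT range in a single tumor. Tumor 5 alone was above it for 1239 genes and below it for 817, tumor 2 for 942 and 957, tumor 3 for 562 and 1047, tumor 1 for 292 and 386, and tumor 4 for 210 and 189. The genes that follow were chosen after their values were seen, from among those where 1 tumor lay farthest from the other tumors and WT livers. Tumor 2 had Fmr1nb, a germline antigen, at 8.46 and Sesn1, a p53 target, at 9.91, where the other tumors read 3.60 to 4.13 and 5.16 to 5.68. It lacked much of the signal of Ugt2b1 (4.98 against 10.31 to 11.69), Ces1f (4.16 against 8.79 to 11.37), Saa1 (6.90 against 11.17 to 13.56) and G0s2 (4.77 against 8.86 to 9.46). In tumor 3 the chemokine Ccl20 read 9.97 and Scara3 8.31, against at most 4.79 and 3.73 in the other tumors.

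Tumor 5 had the secreted ligand Wnt10a at 9.24, the regenerating protein Reg3b at 8.58 and the protease Pappa at 8.12, each at most 4.62 in the other tumors. It was lowest for Ppara, the receptor that drives fatty acid oxidation (6.30 against 9.77 to 9.89), and for Zbtb20, the repressor of Afp in adult liver (5.06 against 8.01 to 8.26). Tumor 4 had Hspa1b, an inducible heat shock protein, at 10.49 against 5.71 to 8.27, and tumor 1 had Igfbp2 at 8.91 against 10.47 to 12.92.

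At the limit of the rule the groups nearly touched. Just inside it, Scnn1a, Vta1 and Ptk2b separated with gaps that round to 0.00 at log2 ratios of -0.85, 0.38 and -0.77, and just outside it were Srrm3, Samt4 and Scrt1, at -0.11, -0.07 and -0.40. Of the 558 separated genes that did not pass limma, the highest unadjusted limma p was 0.161. An unadjusted limma p below 0.05 was found for 593 of the 628 and for 2159 of all 12393 genes. The 628 were picked by separation in these same values, so their low p-values add no support.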

How the data were processed

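Total RNA of 5 tumors, 5 peritumoral livers and 5 WT livers had been hybridized to Affymetrix arrays of 22690 probe sets. The authors deposited log2 values, summarized by RMA after scanning with GCOS 1.4 per the labels, and a table of their own ratios of knockout to WT, which was not used. Of the probe sets, 20393 carried 1 gene symbol, 691 several and 1606 none, and 64 were controls. The 20380 used were averaged per gene to 12393 genes, 7437 of them with 1 probe set.

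Tumors were compared with WT livers in limma 3.58.1 (R 4.3.3) over all genes, with 10 arrays in the fit, no covariate and Benjamini-Hochberg adjustment at 0.05. A gene separated the groups where all 5 tumors lay above, or all below, all 5 WT arrays, a rule that picks genes and is no test. A gap is the distance between the nearest tumor and the nearest WT array. The members and gene lists were chosen with earlier results of these data known. By rule, the genes named were the 15 higher and 15 lower with the widest gap, the 3 higher and 3 lower of each list with the largest ratio, the 8 with the smallest and the 8 with the largest tumor SD at a ratio of at least 1 in size, the 3 nearest to the limit on either side, the 3 with the largest ratio for each tumor that was the single exception, and Mat1a. These were 129 genes, and 34 more were named after their values were seen, as were genes described for a single tumor. Genes known only by a clone or model identifier, 11 of those that separated, were not named. Genes with several probe sets can average unlike transcripts.

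Promoters were RefSeq sequences of GRCm38.p6. The alternatives were another choice of probe sets, median centring, repeated quantile normalization, a filter on dim genes, a block for the replicate number, a joint fit with the peritumoral samples, limma's trend and array weights, and arrays left out. The fit was also run on simulated data for the same genes and group sizes, and its outcome is not reported here. WT and tumor arrays of the same number deviated together in none of the numbers above a correlation of 0.11, so the numbers were not taken as pairs.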

Additional observations from a re-analysis of the deposited data

Results flagged for a closer look

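For each named gene the 5 arrays of a group were examined for 1 array far from the other 4, taken as a gap to the nearest of them of more than 0.710 of the group's whole range. This held in 55 of 326 groups, and the log2 level of the array concerned is given in brackets. Chance flags about 1 in 20 groups of genes that were not selected. Some named genes were picked because 1 tumor was the exception or the tumors were uneven, so that rate does not apply here.

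WT replicate 4 stood above the rest of its group for Bex1 (4.26), Prom1 (6.39), Ly6d (9.07), Car2 (6.72), Ier3 (7.01), Rps19 (11.42), Rpl19 (12.39), Acot9 (7.51), Ubd (6.24), Birc5 (4.58), Vtn (13.56), Esm1 (6.64) and Gpx7 (6.06). WT replicate 4 stood below the rest of its group for Elovl2 (10.05) and Cyp2j5 (9.75). WT replicate 5 stood above the rest of its group for Eif2s3y (8.32), Anxa13 (4.97), Hao2 (5.25) and Prdx2 (8.58). WT replicate 5 stood below the rest of its group for Adi1 (8.02). WT replicate 2 stood above the rest of its group for Mthfd2 (4.95). WT replicate 2 stood below the rest of its group for Fads3 (4.26) and Ccng2 (6.46). WT replicate 1 stood above the rest of its group for Casp9 (6.57). WT replicate 3 stood below the rest of its group for Nnt (8.90). WT replicate 4, the array rich in granulocyte transcripts, accounted for 15 of the 55.

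Tumor 5 stood above the rest of its group for Trib3 (8.96), Psme1 (11.27), Psmb4 (11.58), Hilpda (9.42), Esm1 (8.31), Mdm2 (7.52) and Prdx2 (9.66). Tumor 5 stood below the rest of its group for Npdc1 (6.89), Mthfd1 (7.74), Rxra (6.76), Fn1 (6.68), Col18a1 (8.25), Hc (10.60), Klkb1 (8.45) and Ptprb (6.43). Tumor 2 stood above the rest of its group for Cdkn1a (10.76), Ero1a (8.36), Rrm2 (9.30), Tmprss2 (10.15), Ccng2 (9.59) and Gpx7 (7.49). Tumor 2 stood below the rest of its group for C8a (7.05), Calr (10.62), Casp9 (5.50), Clec4g (4.40) and Mbl1 (8.73). Tumor 3 stood above the rest of its group for Fgfr3 (6.05), Cav1 (8.63) and Cadps2 (6.93). Tumor 3 stood below the rest of its group for Hao2 (4.80). Tumor 5 accounted for 15, tumor 2 for 11 and tumor 3 for 4, while tumors 1 and 4 had none. The cause was not tested for any of them.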

How the results depend on the processing

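The count of 70 genes past the limma threshold rested on which arrays and which model of the spread were used. It was 287 with all 3 groups in 1 fit, 44 with limma's trend, 1838 with array weights, 569 without WT replicate 4 and tumor 2, and 1431 with tumor 5 left out as well. With 1 array left out at a time it ran from 10 without WT replicate 2 to 319 without WT replicate 4, with 15 without WT replicate 1, 15 without WT replicate 3, 14 without WT replicate 5, 27 without tumor 1, 136 without tumor 2, 116 without tumor 3, 23 without tumor 4 and 124 without tumor 5. It stayed between 55 and 92 under the other choices of probe sets, normalization and dim gene filter. With the replicate number as a block (replicate block) 10 genes passed, 9 of them among the 70. The correlations of same-numbered deviations were 0.11, -0.10, -0.15, -0.22 and -0.07, and the numbers were not taken as pairs. Whether arrays of the same number shared a processing step was not tested.

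The 628 separated genes became 2369 without WT replicate 4 and tumor 2, 3700 with tumor 5 left out as well, and between 698 and 1677 with 1 array left out. Leaving out arrays makes separation easier by construction. The 1338 genes beyond the WT range in exactly 4 tumors became 3044 and 3852 under the same choices, and between 1475 and 2294 with 1 array left out. Of the 163 named genes, 2 changed sign, both with the brightest probe set in place of the average: Inhbb at -0.13 and Phgdh at -0.10. The cause was not tested. Scaling moved the median of all genes by less than 0.1. With 5 arrays a group the precision is limited: most genes that separated, 558 of 628, were not past the threshold.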
